A study of Homo sapiens with 12 samples.

Results

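The comparison described here is the response of IPMK-depleted cells to mitomycin C (MMC). It rests on 6 of the 12 Illumina bead arrays of the series, chosen by their titles. The 3 arrays of cells given an IPMK siRNA and MMC were set against the 3 arrays of cells given the same siRNA and no DNA damage, paired by experiment number (1 to 3). All cells were Cal51, a human breast carcinoma line that carries intact p53. Cells were harvested 72 hours after transfection with either a control siRNA or the IPMK siRNA, and treated cells spent the last 24 hours in MMC. The untreated and MMC-treated control siRNA groups, also 3 arrays each, serve as the comparison. The RNA measured in every group was the cytoplasmic fraction released by digitonin, so a value is an abundance in the cytoplasm and says nothing of the nucleus. The MMC concentration and the siRNA sequences are not given in the sources used here.

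MMC is a bifunctional alkylating agent that links the strands of DNA and so blocks replication forks and transcription. Cells with intact p53 respond by stabilising it, and p53 then raises transcription of genes for cell cycle arrest, repair, metabolism and death, while genes of replication and mitosis are repressed through p21 and the DREAM complex. IPMK, the inositol polyphosphate multikinase, makes higher inositol phosphates and phosphatidylinositol trisphosphate, and the title of the series places it in the export of selected mRNAs from the nucleus. The comparison asks how transcripts in the cytoplasm answer DNA crosslinks once IPMK has been depleted.

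Signals are log2 intensities after background correction and quantile normalization of the 12 arrays together, for 9409 genes that stood above background (detection p under 0.01) on at least 3 arrays. Between 13067 and 13458 probes were detected on each of the 6 siIPMK arrays, and 12122 to 12687 on each control array. The siIPMK arrays of experiment 1 stood apart from those of experiments 2 and 3. The first principal component, with 67.5% of the variance, parted the siRNAs. On it the experiment 1 siIPMK arrays lay at 6.64 untreated and 12 with MMC, the other siIPMK arrays at 32.2 to 38.4, and the control arrays at -30.4 to -22.7. The pairing compares each MMC array with the untreated array of its own experiment, and counts without experiment 1 are given below. Of the markers listed for an epithelial line, EPCAM, KRT8, KRT18, KRT19, CLDN3, CD24 and ELF3 were detected on all 6 siIPMK arrays and CLDN7 on 0, while VIM, a mesenchymal marker on the same list, and CD44 were also detected on all 6. Among the fibroblast and endothelial markers COL1A2, PDGFRA, PDGFRB and PECAM1 were also detected on all 6, while COL1A1 was detected on 0 and VWF on 1, and MS4A1 was the leukocyte marker with a named probe, detected on 1. None of the named probes is for IPMK, and the extent of depletion is therefore not reported.

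After IPMK depletion MMC still raised p53 target genes, and lowered a smaller set of genes that includes 17 genes of mitosis and DNA replication. Of the 9409 genes tested 278 passed (2.95%), 184 of them higher with MMC (1.96%) and 94 lower (0.999%). Calls come from limma, in a model with a term for each pair of arrays, at a threshold of 0.05 on the p-value adjusted by Benjamini and Hochberg's method. Each adjusted p below is from that model unless another is named. The ± value of a log2 change is the standard error that limma gives for the mean of 3 pairs. It pools the spread over the 6 pairs of both siRNAs and moderates it across genes. The fit had 4 residual and a median of 20.8 prior degrees of freedom. The ± value can therefore be narrower than the scatter of a gene's own 3 changes, such as 2.057, 1.185 and 1.428 for GDF15. The rises were larger than the falls in the fit: 15 rises and 2 falls reached 2-fold, and 75 rises and 20 falls reached 1.5-fold. These counts include signals below background. Untreated siIPMK arrays detected 8 of the 184 rises on 0 arrays, and MMC arrays 1 of the 94 falls on 0. Bounds for such genes, given below, can lie under 2-fold. The median change was 0.52 (log2) over the rises, -0.41 over the falls and -0.0013 over all genes tested. Because the same 3 paired changes chose these genes, their signs within experiments are fixed largely by the choice: 184, 184 and 183 of the 184 rises were higher in experiments 1, 2 and 3, and all 94 falls were lower in each. The 3 MMC arrays and the 3 untreated arrays did not overlap for 147 of the rises and 40 of the falls, against 9.85% of all genes tested. The same choice raises these counts, so they are a description and no separate support.

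The number of calls depends on the pairing. Without the pair terms 33 genes rose and 1 fell, where the standing level of experiment 1 counts as spread within a group. Without experiment 1 of the siIPMK arrays 124 genes rose and 74 fell, and without experiment 2 there were 110 rises and 37 falls. Nothing in the labels says that the experiments were separate cultures, so the p-values measure the spread between these pairs of arrays.

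The gene lists were chosen with earlier results of these data known, so counts over them are a description and were not tested. Among the p53 targets, 34 of the 88 measured genes rose (38.6%, against 1.96% of all genes tested) and 0 fell (against 0.999%). Their median change was 0.34, and 76 of the 88 had a change above 0. All 3 experiments were higher with MMC for 58 of the 88, against 18% of all genes tested, and the medians in experiments 1, 2 and 3 were 0.48, 0.25 and 0.34. Without the pair terms 16 of these genes rose, and without experiment 1 of the siIPMK arrays 25.

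In the arrest group 9 of 18 measured members were higher (50%, against 1.96% of all genes tested). GDF15, a secreted stress cytokine, had log2 signals of 10.33, 11.52 and 11.26 in untreated siIPMK cells and 12.38, 12.70 and 12.69 with MMC. Every MMC array lay above every untreated array, and experiment 1 began lowest and rose most. The rise was 1.56 ± 0.11 (adjusted p = 3.63e-09), or 2.94-fold. CDKN1A, the cyclin-dependent kinase inhibitor p21, read 13.56, 14.37 and 14.22 untreated and 14.89, 15.08 and 14.98 with MMC. The groups did not overlap, and the change was 0.93 ± 0.09 (adjusted p = 3.67e-07). The MMC arrays of CDKN1A came close to the brightest gene of an array, which stood between 15.43 and 15.61, and whether the probe was still in its linear range was not tested. A dimmer probe of CDKN1A, at a mean of 6.71 and detected on 8 of the 12 arrays, rose by 1.42 ± 0.18. SFN, the checkpoint protein 14-3-3 sigma, went from 8.07, 8.10 and 8.09 to 9.53, 8.84 and 8.93, without overlap. It rose by 1.01 ± 0.12 (adjusted p = 9.49e-06). ATF3, a stress-induced transcription factor, read 7.35, 6.19 and 6.37 untreated and 9.06, 7.20 and 7.13 with MMC. Its groups overlapped because experiment 1 was high in both states, and the paired change was 1.16 ± 0.18 (adjusted p = 0.000399). The other arrest genes that rose were ZMAT3, SERTAD1, GADD45A, TP53INP1 and TOB1, with changes of 0.46 to 0.82.

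**Figure D1:**
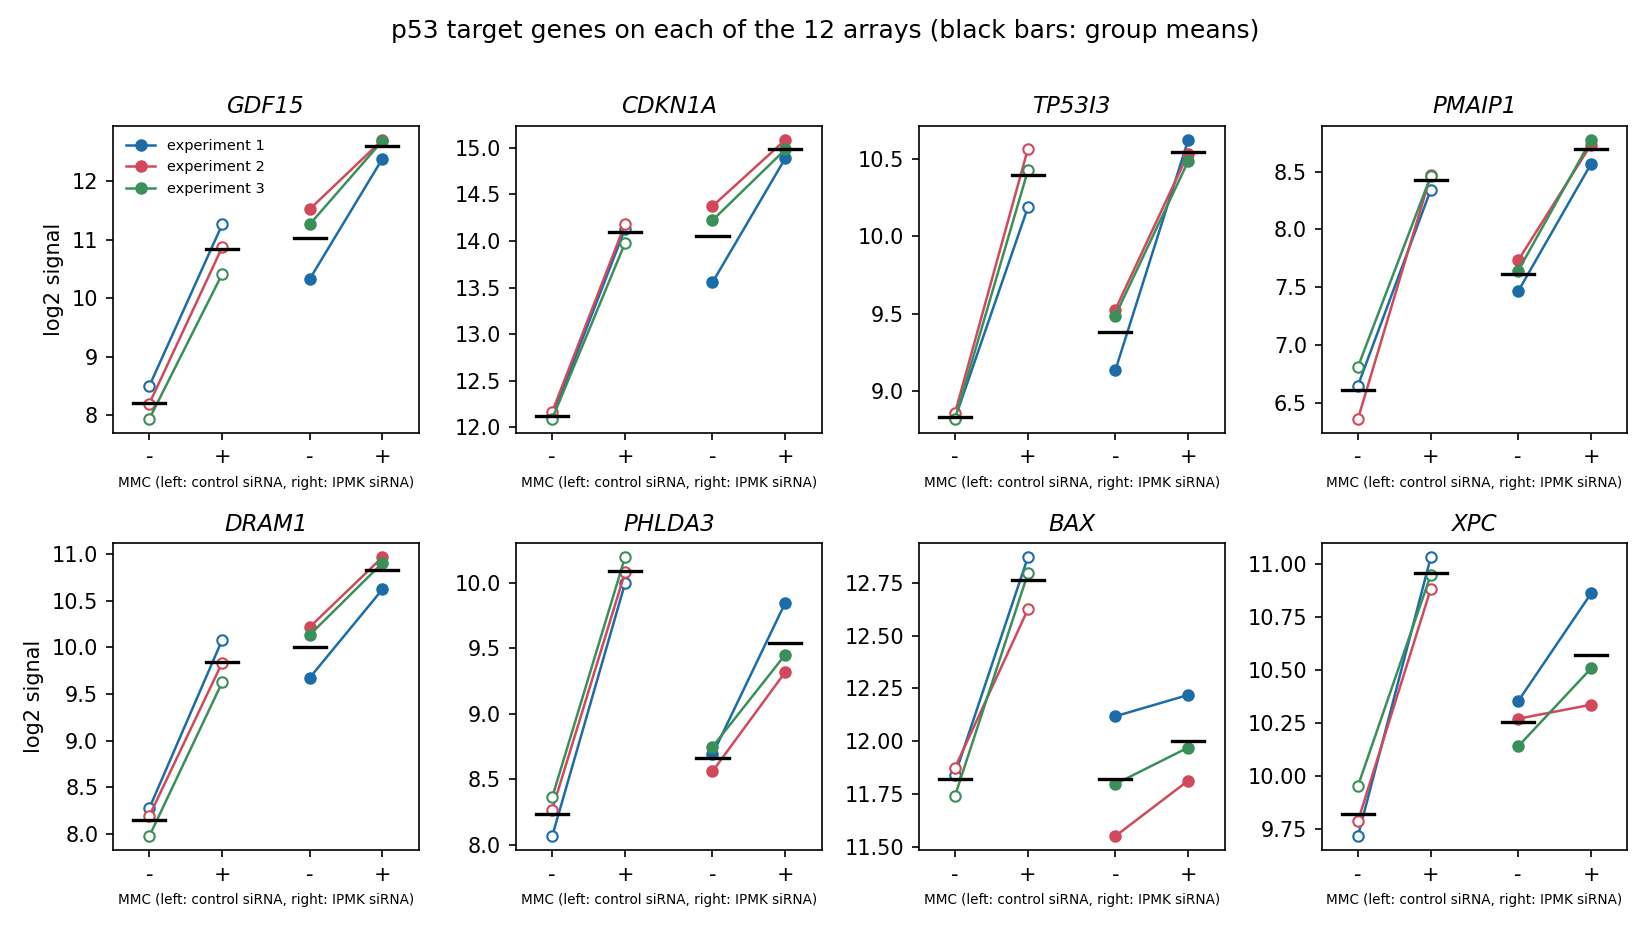
Log2 signal of 8 p53 target genes on each of the 12 arrays, without (-) and with (+) MMC, open circles for control siRNA and filled circles for IPMK siRNA. Lines join the arrays of an experiment and black bars are group means of 3 arrays. Each gene is shown by its brightest probe. On these probes GDF15 and CDKN1A start higher and rise less with IPMK siRNA, and BAX and XPC stay below their MMC level of the control cells. With its probes averaged the CDKN1A difference did not pass.

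Feedback inhibitors of p53 and of mTOR rose together in 5 of 13 measured cases (38.5%, against 1.96% of all genes tested). PHLDA3, which restrains AKT, went from 8.69, 8.56 and 8.75 to 9.85, 9.32 and 9.45. All 3 MMC arrays lay above the untreated ones, and the change was 0.87 ± 0.10 (adjusted p = 6.25e-06). SESN1 and SESN2, the stress sensors that inhibit mTOR complex 1, rose by 0.74 ± 0.10 (adjusted p = 3.69e-05) and 0.77 ± 0.16 (adjusted p = 0.00485). PPM1D, the phosphatase that switches p53 signalling off, rose by 0.75 ± 0.10 (adjusted p = 5.87e-05), and TRIAP1, a small inhibitor of apoptosis, by 0.58. MDM2, the ubiquitin ligase that degrades p53, read 5.66, 6.31 and 6.83 untreated and 6.82, 6.96 and 6.60 with MMC. It was detected on 2 of 3 untreated arrays, experiment 3 ran the other way, and its change of 0.53 ± 0.23 did not pass (adjusted p = 0.265).

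Of 16 measured death genes 6 rose (37.5%, against 1.96% of all genes tested). TP53I3, an oxidoreductase that raises reactive oxygen, read 9.13, 9.53 and 9.49 untreated and 10.63, 10.54 and 10.49 with MMC. The MMC arrays lay within a narrow range above all untreated ones, and the change was 1.17 ± 0.10 (adjusted p = 8.14e-08). PMAIP1, the BH3-only protein NOXA, went from 7.47, 7.73 and 7.64 to 8.57, 8.73 and 8.78. The 3 experiments moved by nearly equal amounts, and the change was 1.08 ± 0.12 (adjusted p = 4.89e-06). PMAIP1 was also the 1 member of 15 measured BCL2 family genes that passed. STEAP3, an iron reductase, rose by 0.61 ± 0.12 (adjusted p = 0.00335), PLTP, a phospholipid transfer protein, by 0.50 ± 0.12 (adjusted p = 0.0124, and 0.139 with its probes averaged), the nuclease AEN by 0.48 and the death receptor TNFRSF10B by 0.39. BAX, the pore-forming effector of the mitochondrial pathway, read 12.12, 11.55 and 11.80 untreated and 12.22, 11.81 and 11.97 with MMC. Each experiment was slightly higher with MMC, the groups overlapped, and the change of 0.18 ± 0.08 did not pass (adjusted p = 0.289). A dimmer BAX probe changed by 0.38 ± 0.11 (adjusted p = 0.0733 with every probe tested).

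Repair and nucleotide supply contributed 2 of 8 measured members (25%, against 1.96% of all genes tested). GADD45A, a sensor of genotoxic stress counted in the arrest group too, rose by 0.71 ± 0.10 (adjusted p = 5.61e-05). RRM2B, the p53-inducible subunit of ribonucleotide reductase, read 7.92, 7.15 and 7.15 untreated and 8.54, 7.50 and 7.66 with MMC. Experiment 1 was high in both states, so the groups overlapped, and the paired change was 0.49 ± 0.11 (adjusted p = 0.0133, and 0.264 with its probes averaged). XPC, the lesion sensor of nucleotide excision repair, read 10.35, 10.27 and 10.14 untreated and 10.86, 10.34 and 10.51 with MMC. Experiment 2 barely moved, and the change of 0.31 ± 0.10 did not pass (adjusted p = 0.0768). PCNA, the replication clamp and a p53 target, changed by 0.23 ± 0.08 (adjusted p = 0.109), and its 2 dimmer probes by 0.01 and -0.06.

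Among metabolic, trafficking and other p53 targets 13 of 34 measured genes rose (38.2%, against 1.96% of all genes tested). DRAM1, a lysosomal regulator of autophagy, went from 9.67, 10.22 and 10.13 to 10.62, 10.97 and 10.91. The groups did not overlap, and the change was 0.82 ± 0.09 (adjusted p = 2.9e-06). KITLG, the ligand of the KIT receptor, rose by 0.80 ± 0.15 (adjusted p = 0.00189), the ankyrin repeat protein ANKRA2 by 0.79 ± 0.10 (adjusted p = 1.04e-05) and ASTN2, an astrotactin, by 0.76 ± 0.12 (adjusted p = 0.000428). SUSD6, SYTL1, CMBL, SPATA18, TNFSF9, TAP1, NINJ1, TIGAR and TRIM32 rose by 0.39 to 0.73.

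Outside these lists, 5 of the 12 largest rises were genes that no untreated siIPMK array detected, so their size is given as a bound against the lowest detected signal. No untreated control array detected them either, so they passed the filter only through MMC arrays, which favours a rise. Their adjusted p-values are of the fit, which uses signals below background, and not of the bound. NKX2-5, a homeobox factor of the heart, read 5.35, 5.11 and 5.02 untreated and 7.32, 6.72 and 6.85 with MMC. All 3 MMC arrays and 0 of the 3 untreated arrays detected it, and it was at least 1.66-fold higher (adjusted p = 1.66e-05 in the fit). GUCA2B, the gut peptide uroguanylin, was at least 2.37-fold higher (adjusted p = 4.92e-05), CELP, a pseudogene of the lipase CEL, at least 2.0-fold (adjusted p = 4.56e-05), HES2, a basic helix-loop-helix repressor, at least 1.68-fold (adjusted p = 0.00138) and ALG1L1P, a pseudogene related to ALG1, at least 1.2-fold (adjusted p = 0.00135), the last on 2 of 3 MMC arrays. Probes for such pseudogenes may also read the parent gene, and CEL itself rose by 0.96 ± 0.17.

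Another 3 of the 12 largest rises were detected in both states. RGS16, a regulator of G protein signalling, went from 6.19, 6.46 and 6.52 to 7.97, 7.70 and 7.91, without overlap, a rise of 1.47 ± 0.18 (adjusted p = 1.5e-05). Its untreated signals lay near the lowest detected signals of these arrays, 6.16 to 6.28. INKA2, an inhibitor of the kinase PAK4, went from 7.03, 6.78 and 6.70 to 8.20, 8.07 and 8.06. Its 3 experiments rose by nearly equal amounts, by 1.28 ± 0.13 on average (adjusted p = 5.25e-07). UBASH3B, a tyrosine phosphatase, rose by 1.12 ± 0.14 (adjusted p = 1.66e-05). No untreated control array detected RGS16 or UBASH3B. In the authors' values the rises of RGS16, INKA2 and UBASH3B were smaller, at 0.72, 0.70 and 0.59, and still passed.

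p53 binds a response element made of a pair of 10-base sequences, most often in introns or far from the start, and the RefSeq windows of 300 bases around the annotated start (build GRCh38.p14) cover little of that. A pair with at most 2 mismatches to the p53 consensus and a gap of up to 13 bases was found in 7 of the 146 risen genes with a window (4.79%), in 3 of the 73 fallen genes (4.11%), in 2.31% of the 7824 tested genes with one and in 2.94% of all 27305 windows of the table. The p53 target AEN and the large rise UBASH3B are shown because they hold such a pair within 120 bases of the start. The 120 bases before the start are printed 5′ to 3′ on the strand of the gene, with the matched pair in capitals.
AEN: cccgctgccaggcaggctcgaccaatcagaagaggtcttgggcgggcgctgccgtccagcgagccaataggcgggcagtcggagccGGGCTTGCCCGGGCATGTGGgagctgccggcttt
UBASH3B: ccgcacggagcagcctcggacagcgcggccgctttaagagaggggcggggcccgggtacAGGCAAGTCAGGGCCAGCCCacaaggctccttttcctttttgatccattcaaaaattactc
The AEN stretch is chr15:88621220-88621339 on the plus strand and the UBASH3B stretch chr11:122655602-122655721 on the plus strand. Each pair has 2 mismatches and no gap, at positions -34 to -15 in AEN and -61 to -42 in UBASH3B, counted from -1 next to the start. A match describes letters in a window and not a bound site.

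Among the falls, MIX23, a protein of the mitochondrial intermembrane space, changed most. It read 10.14, 9.35 and 9.51 untreated and 8.72, 8.39 and 8.48 with MMC, without overlap. It fell by 1.14 ± 0.10 (adjusted p = 8.14e-08), to 0.455 of the untreated level. MAP2K6, a kinase that activates p38, was detected on 2 of 3 untreated arrays and 0 MMC arrays and was at least 1.28-fold lower (adjusted p = 0.00125 in the fit). MARCKS, a substrate of protein kinase C that links membrane and actin, read 10.36, 8.82 and 8.91 untreated and 9.77, 8.08 and 8.16 with MMC. Experiment 1 stood far above the others in both states, so the groups overlapped, while the paired changes were nearly equal, and MARCKS fell by 0.69 ± 0.09 (adjusted p = 2.92e-05).

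A further 9 genes complete the 12 largest falls. HEYL, a Notch-responsive repressor, fell by 0.86 ± 0.13, COL2A1, the collagen of cartilage, fell by 0.81 ± 0.17, the Cajal body RNA SCARNA9 fell by 0.76 ± 0.16, CSPG5, a neural proteoglycan, fell by 0.65 ± 0.15, and LOC100420587, whose function is not annotated, fell by 0.94 ± 0.15. These 5 were detected on 1 of the 3 MMC arrays, so part of each fall lies near background. PLPP3, a lipid phosphatase, fell by 0.67 ± 0.15, the retinol dehydrogenase RDH12 fell by 0.67 ± 0.18, the nuclear receptor NR2F1 fell by 0.67 ± 0.15, and the ligand WNT2B fell by 0.65 ± 0.11, and all 4 were detected on all 6 arrays. Without siIPMK experiment 1 the change of RDH12 was -0.42 (adjusted p = 0.333), and COL2A1, SCARNA9 and NR2F1 did not pass either. PLPP3, NR2F1 and CSPG5 did not pass without experiment 2, nor without experiment 3. RDH12 did not pass without experiment 2. A second, dimmer WNT2B probe changed by -0.08 ± 0.17, and with probes averaged WNT2B did not pass (adjusted p = 0.132). Without the pair terms the 1 gene that fell was MIX23.

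Genes of mitosis were shifted downward by small amounts. Of 72 measured members 10 fell (13.9%, against 0.999% of all genes tested) and 0 rose (against 1.96%). The median change was -0.14, and 60 of the 72 lay below 0. All 3 experiments were lower for 36 of the 72, against 16.4% of all genes tested, with medians of -0.10, -0.22 and -0.15 in experiments 1, 2 and 3. These calls rest on the pairing and on single experiments: 0 members fell without the pair terms, 9 without siIPMK experiment 1, 2 without experiment 2 and 4 without experiment 3. KIF15, a spindle kinesin, read 8.54, 7.85 and 7.88 untreated and 8.22, 6.92 and 7.19 with MMC. The experiment 1 arrays lay above the others, the groups overlapped, and KIF15 fell by 0.64 ± 0.12 (adjusted p = 0.00169). KIF20A, the kinesin of cytokinesis, went from 11.25, 10.60 and 10.69 to 10.73, 10.19 and 10.22. Its paired changes were nearly equal, and it fell by 0.46 ± 0.08 (adjusted p = 0.00123). BUB1B, a spindle checkpoint kinase, fell by 0.49 ± 0.14 (adjusted p = 0.0481), just inside the threshold. Its change was -0.29 without siIPMK experiment 3 (adjusted p = 0.37) and -0.26 in the authors' values (adjusted p = 0.059). CENPA, the centromeric histone, fell by 0.41 ± 0.09 (adjusted p = 0.00575). CDC20, which activates the ligase of anaphase, read 13.13, 12.44 and 12.44 untreated and 12.64, 12.08 and 12.32 with MMC. It was lower in each experiment, and it fell by 0.32 ± 0.08 (adjusted p = 0.0191). STMN1, KIF23, CDKN3, PLK4 and DLGAP5 fell by 0.31 to 0.39. CCNB1, the mitotic cyclin, and PLK1, a mitotic kinase, changed by -0.14 ± 0.10 (adjusted p = 0.548) and -0.13 ± 0.11 (adjusted p = 0.65).

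Of 57 measured DNA replication genes 7 fell (12.3%, against 0.999% of all genes tested) and 0 rose (against 1.96%). Their median change was -0.16, with 43 members below 0. All 3 experiments were lower for 29 and higher for 5. Again 0 members fell without the pair terms, and 5 without siIPMK experiment 1. UHRF1, which keeps DNA methylation through replication, went from 11.29, 10.94 and 11.05 to 10.74, 10.43 and 10.56. The groups did not overlap, and it fell by 0.52 ± 0.08 (adjusted p = 0.000418). MCM6, a subunit of the replicative helicase, read 12.54, 12.39 and 12.30 untreated and 11.95, 11.89 and 12.06 with MMC. All MMC arrays lay below all untreated ones, and it fell by 0.44 ± 0.08 (adjusted p = 0.00231). ASF1B, a histone chaperone, fell by 0.43 ± 0.11 (adjusted p = 0.036). Without siIPMK experiment 1 its change was -0.22 (adjusted p = 0.396). ASF1B has a single kept probe, and in the fit with probes averaged its unchanged value did not pass (adjusted p = 0.0533). GINS2, a helicase cofactor, fell by 0.41 ± 0.08 (adjusted p = 0.00232). MCM2 and MCM3, further helicase subunits, and the clamp loader subunit RFC4 fell by 0.30 to 0.41. BRCA1 and CHEK1, which act at damaged forks, changed by -0.17 ± 0.12 (adjusted p = 0.564) and -0.31 ± 0.09 (adjusted p = 0.0574).

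**Figure D2:**
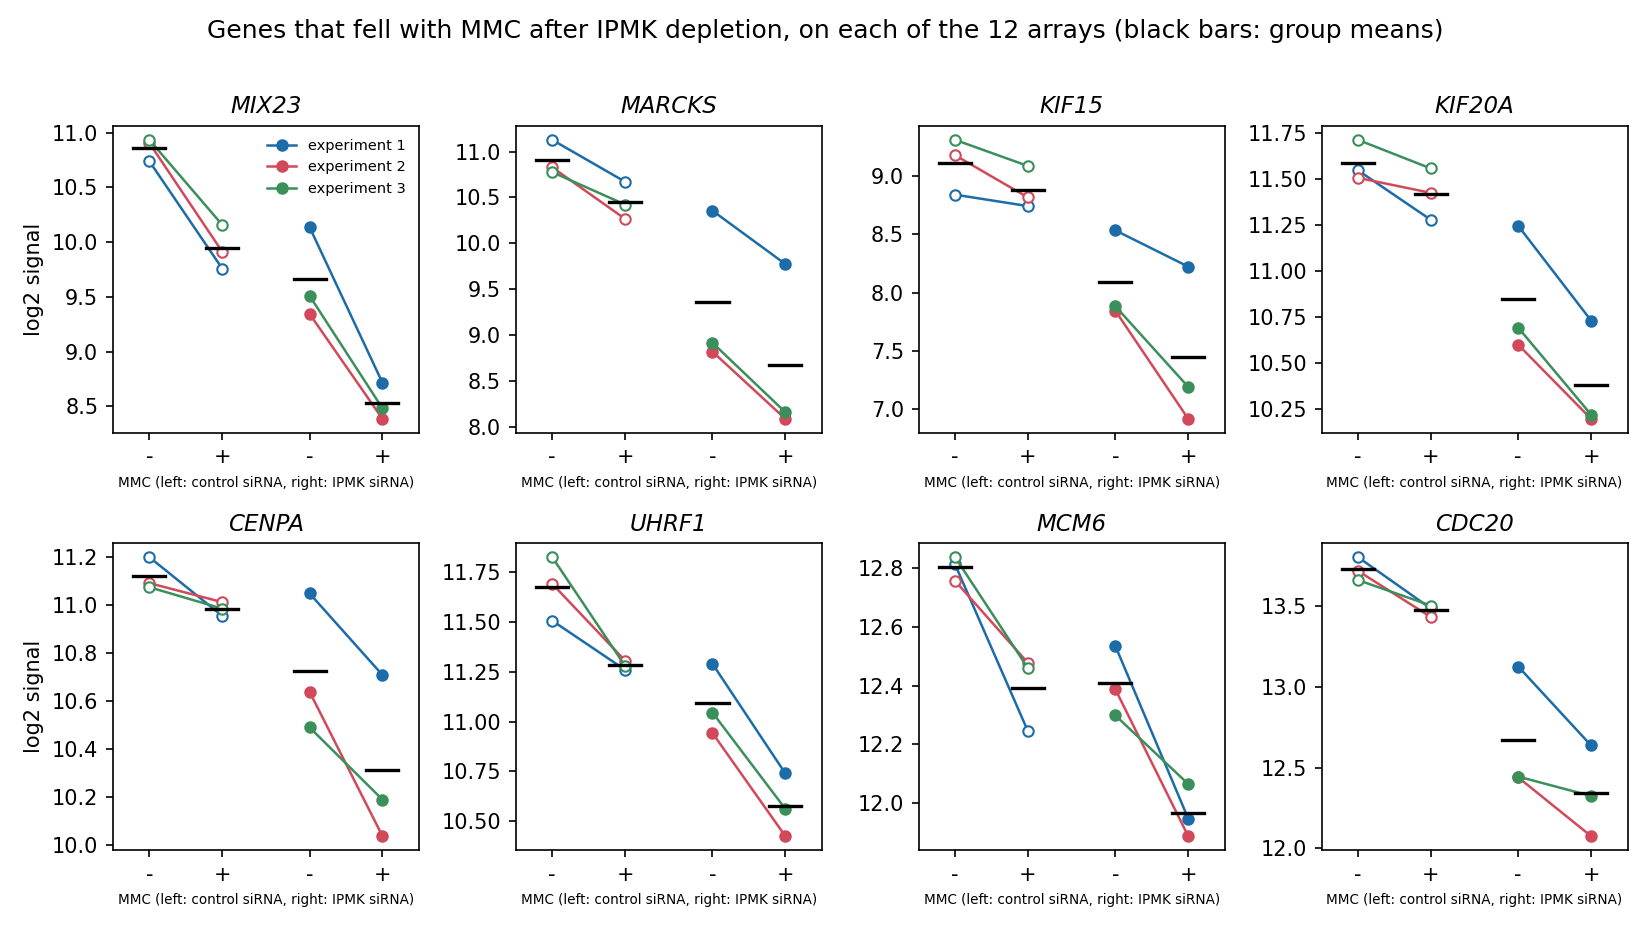
Log2 signal of 8 genes that were lower with MMC after IPMK depletion, drawn as in the plot of p53 targets. Experiment 1 lies above the other siIPMK arrays for MARCKS, KIF15 and CDC20, and the lines of each experiment run downward in all 8 panels for the IPMK siRNA.

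The promoters of genes that fell can be read for the elements through which the DREAM complex and E2F factors are known to act. The CHR element was searched as TTTGAA and E2F sites as TTTGGCGC, TTTCCCGC and TTTGGCGG, on both strands of the 300-base windows, where overlapping matches count once. A CHR match stood in 18 of the 73 fallen genes with a window (24.7%), in 6.16% of the risen genes, in 9.83% of all tested genes and in 15.4% of all windows. Within the 114 mitosis and replication genes with a window the share was 40.4%, and in the 56 fallen genes of neither list 16.1%. E2F matches stood in 12.3% of the fallen genes, 4.11% of the risen, 4.78% of the tested and 2.95% of all windows, and in 3.57% of the fallen genes of neither list. The CCAAT box, searched as CCAAT, stood in 50.7% of the fallen, 38.0% of the tested and 35.7% of all windows. These shares describe the windows and were not tested. The 120 bases before the start are shown for 6 of the fallen mitosis and replication genes, picked among those with a match there. CHR and E2F matches are in capitals. The windows of KIF20A, MCM2 and RFC4, which also fell, hold neither match.
CENPA: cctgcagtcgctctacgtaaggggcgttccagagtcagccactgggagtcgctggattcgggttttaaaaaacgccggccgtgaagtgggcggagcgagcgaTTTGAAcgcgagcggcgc
BUB1B: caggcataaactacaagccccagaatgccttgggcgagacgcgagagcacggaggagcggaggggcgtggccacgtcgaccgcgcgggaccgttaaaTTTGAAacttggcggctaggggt
CDC20: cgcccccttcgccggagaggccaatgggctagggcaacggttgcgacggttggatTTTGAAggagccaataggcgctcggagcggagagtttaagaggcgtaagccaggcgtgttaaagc
KIF15: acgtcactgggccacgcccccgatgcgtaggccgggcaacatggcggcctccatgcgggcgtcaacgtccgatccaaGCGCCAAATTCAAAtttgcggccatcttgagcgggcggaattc
MCM6: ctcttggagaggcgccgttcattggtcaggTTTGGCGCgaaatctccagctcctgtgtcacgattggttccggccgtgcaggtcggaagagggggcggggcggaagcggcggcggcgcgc
UHRF1: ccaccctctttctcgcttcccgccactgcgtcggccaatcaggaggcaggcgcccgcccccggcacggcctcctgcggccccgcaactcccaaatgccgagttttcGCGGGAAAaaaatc
The stretches are chr2:26785936-26786055 on the plus strand for CENPA, chr15:40160949-40161068 on the plus strand for BUB1B, chr1:43358861-43358980 on the plus strand for CDC20, chr3:44761674-44761793 on the plus strand for KIF15, chr2:135876444-135876563 on the minus strand for MCM6 and chr19:4909381-4909500 on the plus strand for UHRF1, from RefSeq in build GRCh38.p14. CENPA, BUB1B and CDC20 carry the CHR letters on the gene's strand, beginning at -18, -23 and -65. KIF15 carries an E2F match from -43 and a CHR match from -35, side by side on the opposite strand. MCM6 holds an E2F match from -90 on the gene's strand and UHRF1 one from -14 on the opposite strand.

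Other groups moved in few members or in none. Over all genes tested 1.96% rose and 0.999% fell, and whether such small counts depart from these shares was not tested. Of 36 measured immediate early genes 3 rose: ATF3, FOSL1 and NFKBIA. FOSL1, a partner of JUN, went from 6.0, 6.80 and 7.35 to 7.40, 7.91 and 7.64, and experiment 3 moved least (0.93 ± 0.20, adjusted p = 0.00668). NFKBIA, the inhibitor of NF-kB, rose by 0.42 ± 0.08 (adjusted p = 0.00232), and with IRF1, an interferon regulatory factor (0.58 ± 0.11, adjusted p = 0.00237), it made up the 2 of 15 NF-kB targets that rose. TAP1, the peptide transporter of antigen presentation and also a p53 target, was the 1 of 23 interferon genes that rose (0.61 ± 0.09, adjusted p = 0.000101). Of 32 measured genes of the ATF4 and unfolded protein response ATF3, SESN2 and the secreted hormone STC2 rose (0.69 ± 0.12 for STC2, adjusted p = 0.000717), and PHGDH, which starts serine synthesis, fell by 0.37 ± 0.08 (adjusted p = 0.00625). The 1 of 27 G1/S genes that passed was E2F7, a repressor of E2F targets that p53 induces. It went from 9.03, 8.50 and 8.79 to 9.94, 9.24 and 9.61, without overlap, and rose by 0.82 ± 0.09 (adjusted p = 3.04e-06). H4C3 was the 1 of 17 histone genes that passed (fell by 0.35 ± 0.07, adjusted p = 0.0038), and CENPS, which joins the FANCM complex, the 1 of 26 Fanconi anaemia genes (fell by 0.38 ± 0.09, adjusted p = 0.0157). A second CENPS probe changed by -0.09 ± 0.11, and with both averaged CENPS did not pass (adjusted p = 0.189). Near-identical copies of histone genes may share probes, so the H4C3 value is uncertain. Of the 9 measured markers listed for an epithelial line 1 passed, and it was VIM, the intermediate filament vimentin, known as a marker of mesenchymal cells, which rose (0.31 ± 0.08, adjusted p = 0.0368).

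No member passed among 32 genes of homologous recombination, 22 checkpoint genes, 20 of nucleotide excision repair, 24 that activate MMC or answer oxidants, 68 ribosomal protein genes and 42 mRNA export genes, by limma's test. At an unadjusted p under 0.05 there were 4, 5, 2, 2, 8 and 8 members in the same order, against 1413 of all 9409 genes (15%). The medians of these 6 lists lay between -0.05 and 0.03. The member that moved most in homologous recombination was SMC6, at 0.51 ± 0.17 (adjusted p = 0.14), detected on 1 of 3 arrays in each state. In mRNA export THOC6, a subunit of the THO complex, changed by -0.30 ± 0.09 (adjusted p = 0.0728), and RBM8A, a core protein of the exon junction complex, by 0.39 ± 0.23 (adjusted p = 0.448). In the MMC list MGST1, a microsomal glutathione transferase, changed by -0.28 ± 0.09 (adjusted p = 0.102), and NQO1, the quinone reductase that can activate MMC, by 0.11 ± 0.09 (adjusted p = 0.625). Of 36 measured inositol phosphate genes 2 rose (5.56%, against 1.96% of all genes tested). They were PLCD3, a phospholipase C (0.69 ± 0.14, adjusted p = 0.0042), and INPP1, an inositol phosphatase (0.36 ± 0.08, adjusted p = 0.0114).

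**Figure D3:**
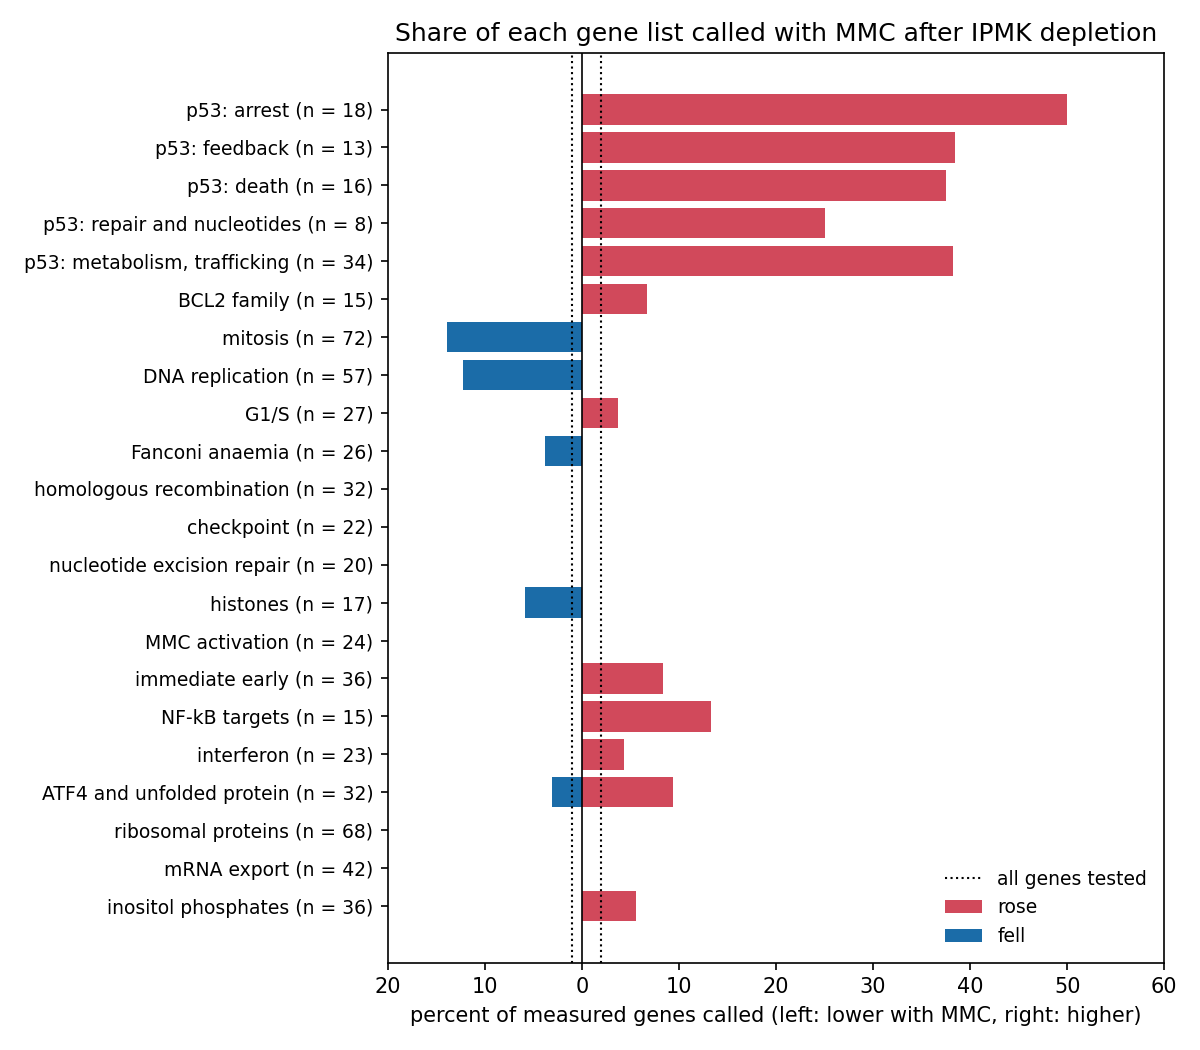
Percent of the measured genes of each list that were called higher (right) or lower (left) with MMC after IPMK depletion, with n measured genes in brackets. Dotted lines mark the shares over all genes tested, 1.96% and 0.999%. The p53 lists reach 25% to 50% on the right, mitosis and replication 13.9% and 12.3% on the left.

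Set beside the response of cells with control siRNA, the rises after depletion were mostly a subset. The falls mostly were not called there, though most of them had the same direction. With control siRNA 950 genes passed (10.1%), 581 higher (6.17%) and 369 lower (3.92%). Of the 184 rises after depletion 143 also rose with control siRNA and 0 fell. Of the 94 falls 23 also fell there and 0 rose, and 82 (87.2%) had a change below 0 there. The comparisons share no array, though they share the normalization and the estimate of the spread. The changes correlated with r = 0.503 across the 9409 genes, which are not independent replicates.

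Genes chosen for a rise with control siRNA had a median change of 0.51 there and 0.23 after depletion, and 553 of the 581 moved less after depletion. A choice on the control values favours larger values there, so the test of the difference itself was used. That test asked whether the MMC change after depletion minus the change with control siRNA departed from 0, and 60 of 9409 genes passed (0.638%), 11 with a higher (0.117%) and 49 with a lower (0.521%) change after depletion. No gene passed this test without the pair terms or with 1 term per experiment for both siRNAs, where 327 and 483 genes had an unadjusted p under 0.05. Of the 49 genes with a lower change 46 were rises with control siRNA, and 17 belonged to the p53 lists. Over the 88 measured p53 targets the median change was 0.73 with control siRNA against 0.34 after depletion. Of these 66 rose with control siRNA and 34 after depletion, against 6.17% and 1.96% of all genes tested. The change was lower after depletion in 77 of the 88. The median difference was -0.345 over the p53 targets and 0.004 over all genes. The lists hold mostly control rises and were chosen with earlier results known, which favours a lower change. Whether p53 targets differ in this from other control rises was not tested. For the 94 falls after depletion the change was larger after depletion in all but 6, with medians of -0.41 and -0.16. These genes were chosen on the siIPMK values, which favours larger changes after depletion. The difference passed for 3 of them, LOC100420587, TMSB15A and RDM1.

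**Figure D4:**
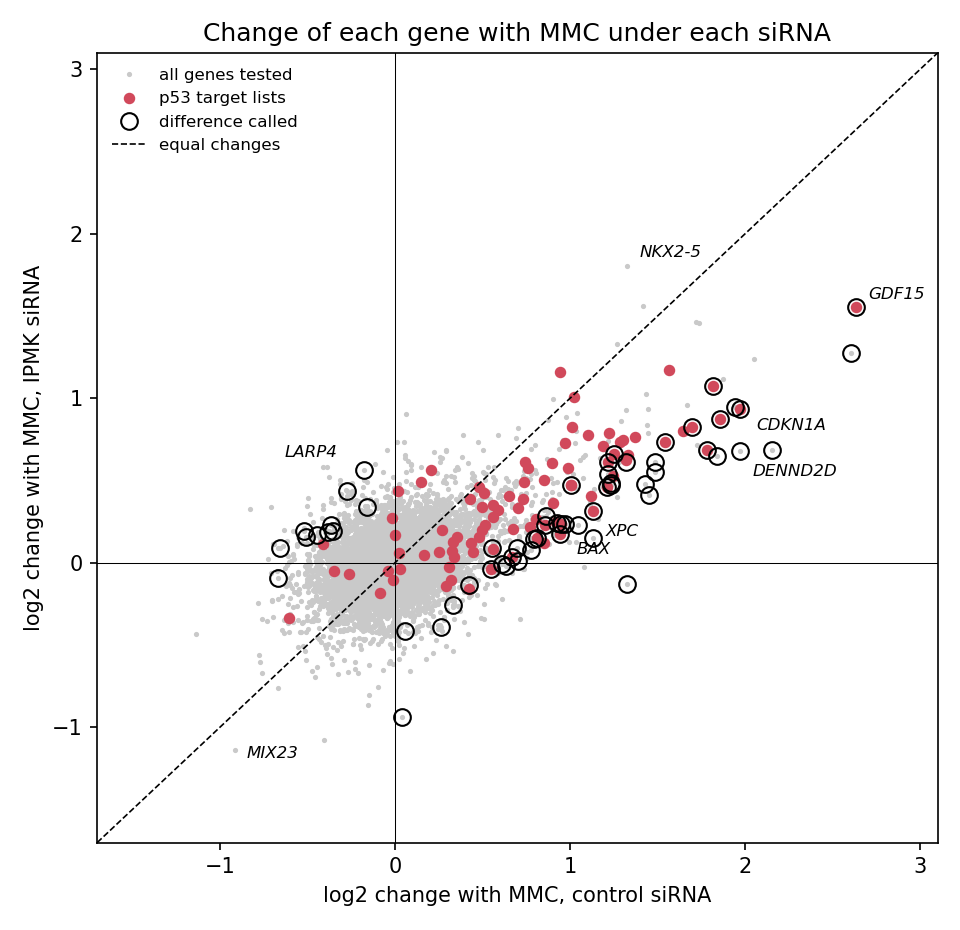
Log2 change with MMC of each of the 9409 genes with control siRNA (horizontal) and with IPMK siRNA (vertical), means of 3 pairs. Red points are p53 targets, rings mark the 60 genes whose difference passed, and the dashed line marks equal changes. The ringed p53 targets lie below the line, from GDF15 at 2.63 and 1.56 down to genes near 0 on the vertical axis.

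Levels separated these 49 genes into kinds. In 44 the untreated mean was higher with IPMK siRNA than with control siRNA, where any gap above 0 counts. The gap was 0.002 for BAX, and its median over the 49 genes was 0.805. Of these 49 genes 4 were detected on 0 of 3 untreated control arrays. In 26 of the 44 the level was still higher after MMC. In 18 the order turned, so that the level after MMC was lower with IPMK siRNA. The difference of changes is by construction the gap in level with MMC minus the gap without it, and the gaps were not tested here. Choosing genes for a lower change therefore favours a higher untreated level with IPMK siRNA, so these counts are a description only.

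CDKN1A belonged to the first kind. Its means with control siRNA were 12.13 ± 0.04 untreated and 14.10 ± 0.11 with MMC (SD, n = 3), and with IPMK siRNA 14.05 ± 0.44 and 14.98 ± 0.10, so that the untreated depleted cells already stood near the MMC level of the control cells. The difference of changes was -1.04 ± 0.13, adjusted p = 7.93e-05. With the probes of each gene averaged, the differences of CDKN1A (-0.43 ± 0.16, adjusted p = 0.289), PMAIP1 (adjusted p = 0.321) and INKA2 (adjusted p = 0.104) did not pass. The CDKN1A difference of -1.04 is that of the brighter probe alone, which with MMC came close to the brightest gene of an array. GDF15 moved from 8.22 ± 0.28 untreated and 10.85 ± 0.42 with MMC (SD, n = 3) with control siRNA and 11.04 ± 0.63 and 12.59 ± 0.18 with IPMK siRNA, with a difference of -1.08 ± 0.16, adjusted p = 0.000485. DRAM1 (-0.87 ± 0.13, adjusted p = 0.000485), PMAIP1 (-0.74 ± 0.18, adjusted p = 0.0458) and SESN1 (-0.81 ± 0.14, adjusted p = 0.0021) also ended above the mean level of MMC-treated control cells. In the authors' values the PMAIP1 difference was -0.29 and did not pass (adjusted p = 0.255). Another 3 genes with a higher untreated level were detected on 0 of the 3 untreated control arrays, so their rise with control siRNA and the difference are given as bounds against the lowest detected signal. MYBPHL, related to myosin-binding protein H, rose at least 2.96-fold with control siRNA and by 0.68 ± 0.14 after depletion, a difference of -0.88 at the bound (adjusted p = 0.000289 in the fit). S100Z, a calcium-binding protein, read 7.89, 7.89 and 8.06 untreated and 7.69, 7.82 and 7.93 with MMC after depletion and did not pass there. With control siRNA it rose at least 1.62-fold, a difference of -0.82 at the bound (adjusted p = 0.000485 in the fit). DENND2D, a Rab exchange factor, rose at least 2.51-fold with control siRNA and by 0.68 ± 0.18 after depletion, a difference of -0.65 at the bound (adjusted p = 0.00937 in the fit). The rise of DENND2D after depletion was 0.36 without siIPMK experiment 1 (adjusted p = 0.426), and in the authors' values its difference did not pass (-0.49, adjusted p = 0.0875).

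BAX belonged to the other kind. Its means were 11.82 ± 0.07 untreated and 12.76 ± 0.13 with MMC (SD, n = 3) with control siRNA and 11.82 ± 0.29 and 12 ± 0.20 with IPMK siRNA, equal before MMC and apart after it, with a difference of -0.77 ± 0.11, adjusted p = 0.000485. PHLDA3 moved from 8.23 ± 0.15 untreated and 10.09 ± 0.10 with MMC (SD, n = 3) with control siRNA and 8.67 ± 0.10 and 9.54 ± 0.28 with IPMK siRNA (-0.98 ± 0.14, adjusted p = 0.000485). XPC moved from 9.82 ± 0.12 untreated and 10.95 ± 0.08 with MMC (SD, n = 3) and 10.25 ± 0.11 and 10.57 ± 0.27 in the same order (-0.82 ± 0.13, adjusted p = 0.00141). INKA2, which rose with both siRNAs, ended at 8.11 with IPMK siRNA and 9.21 with control siRNA (-1.33 ± 0.18, adjusted p = 0.000273). CFAP144, a ciliary protein, passed the test of the difference (adjusted p = 0.0293). It stood above background on 0 of 3 untreated control arrays and 1 of 3 untreated depleted arrays. At the bound it rose at least 1.56-fold with control siRNA, or 0.64 on the log2 scale, against a change of 0.65 ± 0.18 after depletion that did not pass (adjusted p = 0.0543), so no difference is shown above background. In the authors' values the difference did not pass (adjusted p = 0.0947).

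In 11 genes the change was higher after depletion, and 8 of them were falls with control siRNA that did not pass after depletion. ALG5, which makes dolichyl-phosphate glucose, fell by 0.66 with control siRNA and changed by 0.09 ± 0.12 after depletion (0.75 ± 0.17, adjusted p = 0.0359 for the difference). DOLK, the dolichol kinase of the same pathway, fell by 0.50 and changed by 0.16 ± 0.11 (0.66 ± 0.16, adjusted p = 0.0451). SLCO2A1, a prostaglandin transporter, fell by 0.52 and changed by 0.20 ± 0.12 (0.71 ± 0.17, adjusted p = 0.0451). The SLCO2A1 difference was 0.41 in the authors' values (adjusted p = 0.0594), and it did not pass when any pair of arrays was left out. The other 3 genes rose after depletion and did not pass with control siRNA: LARP4, CYRIB and TAGLN. LARP4, which binds poly(A) tails and stabilises mRNA, went from 8.25, 7.90 and 8.06 to 8.76, 8.62 and 8.52, without overlap, a rise of 0.57 ± 0.11 (adjusted p = 0.00291), and the difference was 0.75 ± 0.16, adjusted p = 0.0212. CYRIB, which restrains RAC1, went from 8.90, 8.92 and 8.82 to 9.39, 9.19 and 9.37, also without overlap, a rise of 0.44 ± 0.10 (adjusted p = 0.0152), with a difference of 0.71 ± 0.15, adjusted p = 0.0185. For both genes a second probe changed little, by -0.04 ± 0.25 for LARP4 and 0.01 ± 0.13 for CYRIB. With probes averaged neither rise passed (adjusted p = 0.467 for LARP4 and 0.282 for CYRIB). The differences of LARP4 (0.33, adjusted p = 0.62) and CYRIB (0.29, adjusted p = 0.438) did not pass either with probes averaged. ALG5 and DOLK have a single kept probe each, so their differences stayed at 0.75 and 0.66 in that fit. They did not pass there (adjusted p = 0.0754 and 0.0588), because the spread and the adjustment shared across genes changed.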

How the data were processed

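Cytoplasmic RNA of Cal51 cells was measured on 12 Illumina bead arrays, 3 for each combination of siRNA and treatment. For each of 48802 probes the deposited bead table lists an average intensity, a detection p-value and a bead count, per the file headers. A second deposited table holds the authors' processed values of 14853 probes on a log2-like scale with equal distributions across arrays, and was used as an alternative only. The submitters' processing notes name lumi without a version, and the transform is not given in the sources used here. Probes were named from GEO's platform annotation, with symbols updated through Entrez identifiers.

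In R 4.3.3 with limma 3.58.1, neqc estimated and removed the background through the detection p-values (offset 16), made the distributions of the 12 arrays equal by quantiles and gave log2 signals. Kept were the 13830 probes detected (p under 0.01) on 3 or more arrays, of which 1744 have no single symbol, and the brightest probe stood for each of 9409 genes. The fit had 6 pair terms and 1 MMC term for each siRNA, with variances moderated along the mean signal (lmFit, eBayes). It had 4 residual and a median of 20.8 prior degrees of freedom. Same-numbered arrays deviated together from their group means (r = 0.704, 0.545 and 0.346 with IPMK siRNA, 0.486, 0.193 and 0.419 with control siRNA), as used for the pairing by experiment number. With IPMK siRNA experiments 2 and 3 were not told apart by this, since untreated 3 with MMC 2 gave r = 0.419 and untreated 2 with MMC 3 gave 0.363. The files name no slide or scan. Arrays carry no read depth, and their number limits the precision.

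A bound is the mean log2 signal of the brighter group against the mean, over the dim group's arrays, of the higher of the lowest detected signal and the probe's own, given as a fold. Named genes are the 12 largest rises and falls that passed with the same sign in all 3 experiments, the 5 largest differences each way, a fixed set, and up to 4 per list. The members and the 25 gene lists were chosen with earlier results of these data known. The fit was tested on simulated data. Alternatives were the pair terms, background, scaling, filter, probe choice, the authors' values and leaving out each pair of arrays.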

Additional observations from a re-analysis of the deposited data

Results flagged for a closer look

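The change with MMC differed between the siRNAs for 60 genes by the test of the difference itself (limma, Benjamini-Hochberg adjusted p under 0.05 over 9409 genes). Differences are the log2 change with IPMK siRNA minus that with control siRNA, over 3 pairs of arrays each. Among the named genes a fitted difference toward a smaller rise or a larger fall was seen for MYBPHL (-1.47), S100Z (-1.46), INKA2 (-1.33), DENND2D (-1.29), CFAP144 (-1.19), GDF15 (-1.08), CDKN1A (-1.04), PHLDA3 (-0.98), LOC100420587 (-0.98), DRAM1 (-0.87), XPC (-0.82), SESN1 (-0.81), BAX (-0.77) and PMAIP1 (-0.74). A larger rise or a smaller fall was seen for DOLK (0.66), CYRIB (0.71), SLCO2A1 (0.71), LARP4 (0.75) and ALG5 (0.75). CDKN1A, GDF15 and DRAM1 are p53 targets whose untreated level was higher with IPMK siRNA, and BAX is one whose untreated levels were equal. MYBPHL, S100Z, DENND2D and CFAP144 were detected on 0 of 3 untreated control arrays, so their fitted values above are measured from background and have no order. Against the lowest detected signal these differences come to -0.88, -0.82, -0.65 and 0.005. All 19 differences rest on the pair terms, since none of them passed without these. In the authors' values PMAIP1, LOC100420587, SLCO2A1, DOLK, DENND2D and CFAP144 did not pass. With probes averaged INKA2, PMAIP1, ALG5, LARP4, CYRIB, DOLK and CDKN1A did not. ALG5 and DOLK have a single kept probe, so for them only the shared spread and adjustment changed.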

How the results depend on the processing

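All 278 genes that passed after depletion kept their sign under every alternative that measured them, and no named call was reversed. The kept sign was largely fixed in advance and is no separate support. Changing the pair terms leaves the mean change as it is. The genes were also chosen with nearly all signs alike over the experiments, so leaving out a pair could hardly reverse them. The pairing of arrays decides how many pass: without the replicate block 34 genes were called after depletion, 194 with control siRNA and 0 for the difference, and 16, 0 and 0 members of the p53, mitosis and replication lists. With 1 block shared by both siRNAs these values were 39, 281, 0, 17, 0 and 0. Median scaling gave 144, 624 and 38 calls and 4 mitosis falls, fitting each siRNA alone 4 mitosis falls, and averaging probes 36 differences. Leaving out 1 pair gave 147 to 280 calls after depletion (fewest without siIPMK experiment 2), 451 to 1351 with control siRNA and 25 to 148 differences (most without siIPMK experiment 1), 25 to 34 p53 rises, 2 to 9 mitosis falls and 5 to 7 replication falls. Rises made up 66.2% of the calls after depletion, 97.1% without the block and 94.9% with the shared block. Of the 63 named genes called after depletion 21 passed without the block, 44 without siIPMK experiment 1 and 46 without experiment 2, and of the 19 differences 13 passed in the authors' values. For genes near background, such as NKX2-5, GUCA2B and MAP2K6, the authors' values gave changes of 0.67, 0.68 and -0.38 in place of 1.81, 1.56 and -1.07. The cause of these shifts was not tested. Signal over background limits what the dim genes can show, and the option without a filter covered only probes with a name.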

Other observations

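Metallothioneins, which bind zinc and copper and buffer oxidants, were not on any list, and the family is described after its values were seen. Of 7 measured members 3 fell after depletion with MMC, against 0.999% of all genes tested: MT1M by 0.39 ± 0.09 (limma adjusted p = 0.017), MT1H by 0.37 ± 0.09 (adjusted p = 0.0231) and MT2A by 0.33 ± 0.08 (adjusted p = 0.0199). The other 4, MT1E, MT1F, MT1G and MT1X, changed by -0.26 to -0.19 and did not pass. MT2A read 12.78, 12.14 and 12.30 untreated and 12.35, 11.78 and 12.13 with MMC, lower in each experiment with overlapping groups. With control siRNA 3 of the 7 fell as well, MT1F by 0.29 (adjusted p = 0.0127), MT1G by 0.34 (adjusted p = 0.00876) and MT1H by 0.32 (adjusted p = 0.0245). The test of the difference passed for none of MT1M, MT1H and MT2A (adjusted p = 0.564, 0.922 and 0.604). Members of this family are similar in sequence and may share probes.

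Small noncoding RNAs were also looked at after the values were seen. Of 21 measured RNAs 1 rose and 3 fell, against 1.96% and 0.999% of all genes tested. With control siRNA 2 rose and 2 fell, among them RN7SK, which rose by 0.51 (adjusted p = 0.00696), and SNAR-A1, which fell by 0.31 (adjusted p = 0.0392). RN7SK, the RNA that holds the elongation factor P-TEFb inactive, read 7.68, 9.22 and 9.30 untreated and 8.34, 9.92 and 9.59 with MMC. It rose by 0.55 ± 0.12 (adjusted p = 0.0102), with experiment 1 far below the others in both states. SCARNA9, SNORA33, a small nucleolar RNA, and SNAR-A1, a primate RNA that binds NF90, were the falls. SNORA33 fell by 0.61 ± 0.17 (adjusted p = 0.0425) and SNAR-A1 by 0.41 ± 0.10 (adjusted p = 0.017). Probes for such RNAs read what the labelling reaction primed, and RNA quality was not tested here.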
